A study of Mus musculus with 8 samples.

Results

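The 7 genes described here encode the inhibitors of cyclin-dependent kinases (CDKs): the Cip/Kip genes Cdkn1a, Cdkn1b and Cdkn1c, and the Ink4 genes Cdkn2a, Cdkn2b, Cdkn2c and Cdkn2d. They were taken by name from a count table of 27554 genes, in which all 7 had a row. Of these, 6 passed the filter on low counts and were among the 11730 genes tested, and Cdkn2b did not pass. Polyadenylated RNA was sequenced from Pax7-positive muscle stem cells, which had been sorted from hindlimb muscle by flow cytometry. All mice, on a C57BL/6NTac background, carried both the reporter allele Pax7tm3955(T2A-ZsGreen)Tac, which follows Pax7, and the reporter allele Myf5tm3956(T2A-E2Crimson)Tac, which follows Myf5. The groups were female Myf5High, female Myf5Low, male Myf5High and male Myf5Low, where High and Low are the 2 ends of the E2Crimson range. No treatment and no age is given in the labels. Each group had 2 libraries, each from a pool of 4 mice, and the pool labels give the High and Low library of a pool the same number, so every fraction had 4 libraries from 4 pools.

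CDK inhibitors hold back the kinases that drive a cell from growth phase into DNA replication. Ink4 proteins bind CDK4 and CDK6 and keep them from their D-type cyclins, while Cip/Kip proteins bind cyclin and CDK together and act on a wider range of complexes. In skeletal muscle, adult stem cells rest outside the cell cycle, and their daughters leave it for good when they differentiate, a step at which p21 (Cdkn1a) and p57 (Cdkn1c) are known to act. Cdkn1c is an imprinted gene expressed from the maternal copy.

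The Cip/Kip genes share the region that binds cyclin and CDK, and a stretch of coding sequence is shown to let the family be compared. The 60 bases below, the ungapped stretch near the start of the coding sequence with most bases identical in all 3, were read from GENCODE M21 transcripts on GRCm38, each on its gene's strand, and capitals mark the 29 bases that are identical in all 3 genes.
Cdkn1a, coding bases 49 to 108, chr17:29098456-29098515 (+): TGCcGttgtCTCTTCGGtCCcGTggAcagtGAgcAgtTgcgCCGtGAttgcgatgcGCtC
Cdkn1b, coding bases 85 to 144, chr6:134921004-134921063 (+): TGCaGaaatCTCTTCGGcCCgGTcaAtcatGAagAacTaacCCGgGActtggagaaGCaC
Cdkn1c, coding bases 94 to 153, chr7:143460555-143460614 (-): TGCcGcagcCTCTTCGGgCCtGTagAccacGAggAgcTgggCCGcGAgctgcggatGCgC
Over this window, Cdkn1b and Cdkn1c were identical at 63.3% of bases, Cdkn1a and Cdkn1c at 61.7%, and Cdkn1a and Cdkn1b at 56.7%. In the same orientation, no 50-base stretch of any Cdkn1b, Cdkn1c, Cdkn2a, Cdkn2b, Cdkn2c or Cdkn2d transcript was found in a transcript of another gene. For Cdkn1a 76 of 3547 such stretches were (2.14%). Reverse complements were not counted, so transcripts on the opposite strand of a member, such as Gm44732 at Cdkn1c, are left out here. Among the Ink4 genes, the longest shared run was 23 bases, between Cdkn2a and Cdkn2b: cgggaaggcttcctggacacgct, shown because these neighbours are the pair most alike.

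Gene counts totalled 3140361 to 4238427 per library, so that 3 counts, taken as the smallest detectable level, corresponded to 0.672 to 0.986 normalised CPM, the counts scaled to a common library size. One annotated gene, Gm42418, took 20.1 to 28.8% of the counts of a library. Pax7 was at 1001 to 1498 normalised CPM in all 8 libraries. Myf5 itself, whose reporter set the fractions, was called higher in Myf5High (log2 fold change 1.19, adjusted p = 0.0284 by edgeR), and this call was lost when any of 5 single libraries was left out (adjusted p 0.0566 to 0.127). Replicates within a group differed by more than sampling noise, at a chi-square of 8.26 to 25.6 per degree of freedom.

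Cdkn1c was the inhibitor that separated the fractions. Its gene, ENSMUSG00000037664, lies at chr7:143458339-143461050 on the minus strand of GRCm38. In Myf5High cells it stood at 9.38 and 7.89 normalised CPM in the female libraries and at 15.1 and 14.8 in the male ones. In Myf5Low cells it stood at 239.3 and 588.2 in the female libraries and at 187.1 and 105.4 in the male ones. The lowest Myf5Low library was thus well above the highest Myf5High library, and the female Myf5Low pool 2 was the highest of all. Means were 11.8 ± 3.71 CPM in Myf5High and 280 ± 213 in Myf5Low (SD, n = 4 each). Over both sexes Cdkn1c was 21.6-fold lower in Myf5High (log2 fold change -4.43, SE 0.30, 95% interval -5.07 to -3.80, adjusted p = 9.68e-08 by edgeR with Benjamini-Hochberg adjustment), with the second smallest p-value of all genes tested. It was the one member called among the 6 tested, where 1.2% of all genes tested were called, and 0.435% were called in the same direction. Libraries of the fractions did not overlap, with all Myf5High values below all Myf5Low values, in 2.22% of genes tested. In bulk RNA, fewer cells of a type and less RNA per cell cannot be told apart. The counting strand is not given in the sources used here, and the annotated antisense transcript Gm44732 overlaps 625 exon bases of Cdkn1c; without strand, reads of the 2 cannot be told apart there.

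**Figure D1:**
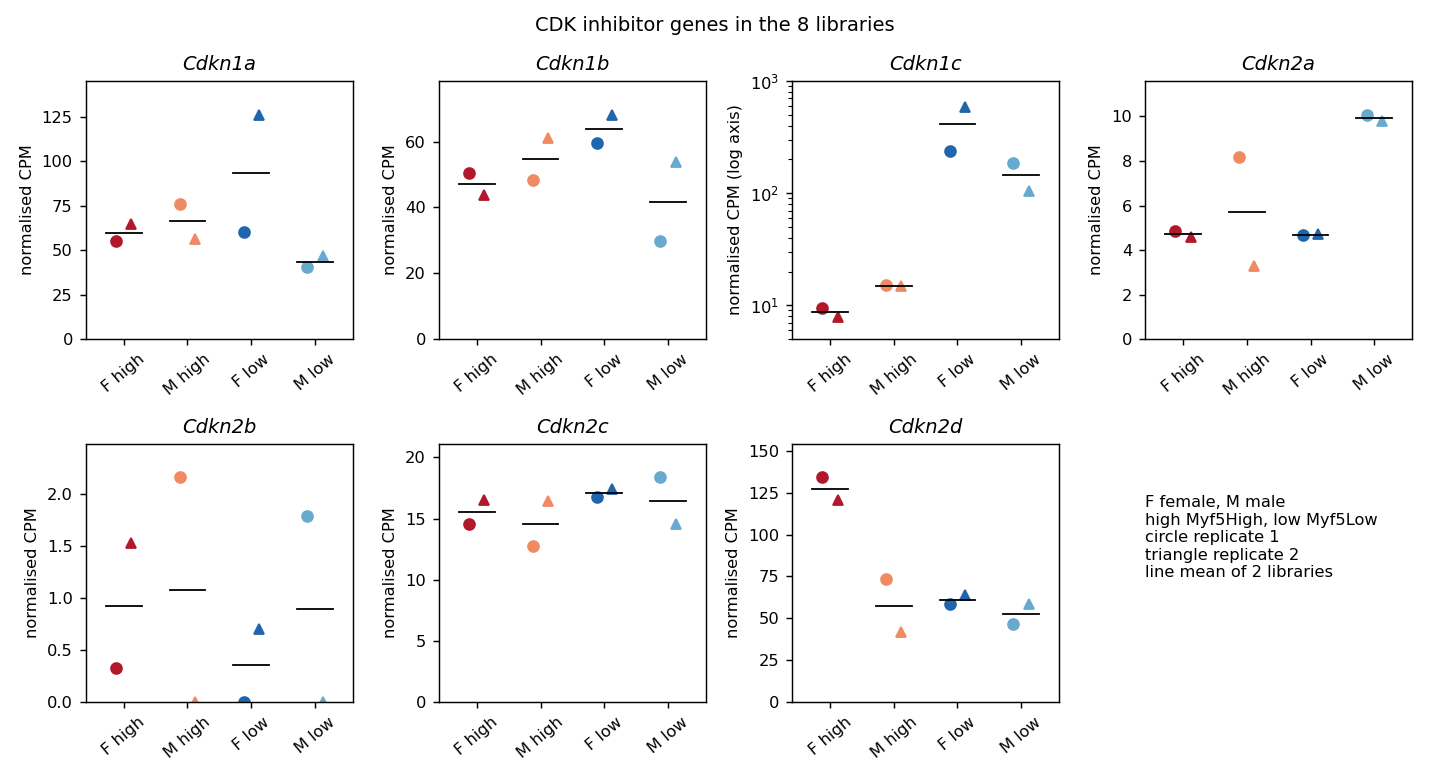
Normalised CPM of the 7 CDK inhibitor genes, 1 point per library, by sex (F, M) and fraction (high, low), on a linear axis from 0 except for Cdkn1c, which has a log axis. Cdkn1c separates the fractions, from at most 15.1 CPM in Myf5High to at least 105.4 in Myf5Low; the libraries of every other member overlap between the fractions.

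The direction of the Cdkn1c difference was the same in all 4 pools, and its size was not. The ratio of Myf5Low to Myf5High was 25.5 and 74.5 in female pools 1 and 2, and 12.4 and 7.12 in male pools 1 and 2. In 8.93% of genes tested, Myf5High was lower than Myf5Low in all 4 pools. In females alone Cdkn1c was 47.96-fold lower in Myf5High (log2 -5.58, SE 0.45, adjusted p = 1.04e-06), from 414 ± 247 to 8.64 ± 1.05 CPM (SD, n = 2), in a comparison that called 0.332% of genes, 0.136% in that direction. In males it was 9.75-fold lower (log2 -3.29, SE 0.40, adjusted p = 0.0011), from 146 ± 57.8 to 14.96 ± 0.236 CPM (SD, n = 2), where 0.171% of genes were called and 0.0512% in that direction. Both are edgeR results, and Cdkn1c was the only member called in either sex. The female effect exceeded the male one by 2.30 on the log2 scale in the direction of a lower Myf5High level (interaction -2.30, SE 0.56, 95% interval -3.48 to -1.12, unadjusted p = 0.000679), which ranked eighth of all genes and did not pass the adjustment (adjusted p = 0.917). Leaving out single libraries gave -2.81 (without female Myf5Low pool 1) to -1.52 (without female Myf5Low pool 2), with adjusted p of 0.154 to 1. The interaction called 0% of the 11730 genes with edgeR, so no member was called. At an unadjusted p under 0.05 it held 533 genes (4.54%), among them Cdkn1a, Cdkn1c and Cdkn2d, and DESeq2 called 0 members.

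The genes whose levels ran most closely with Cdkn1c over the 8 libraries were Mymk, Dpp6, Mylk4, Casz1, Tgfb2 and Myog. The measure was Pearson's r of log2 CPM, searched over 9548 genes, and it is a description, since the libraries fall into the 2 fractions and the points share library and pool. Mymk, which encodes the membrane protein myomaker of myoblast fusion, had r = 0.99 (Spearman's rho 0.84). It had 0 counts in every Myf5High library and 17.6, 67.7, 11.9 and 4.30 CPM in female pools 1 and 2 and male pools 1 and 2 of Myf5Low. Its order over the Myf5Low libraries is the order of Cdkn1c, with female pool 2 highest and male pool 2 lowest. Myog, the transcription factor myogenin that starts terminal differentiation, had r = 0.97 (rho 0.79). It was at 0.647 and 1.27 CPM in female and at 0 and 0.658 CPM in male Myf5High libraries, against 155.2 and 532.5 in female and 124.8 and 93.7 in male Myf5Low libraries. Dpp6, Mylk4, Casz1 and Tgfb2 had r of 0.98, 0.98, 0.97 and 0.97, and were called lower in Myf5High with log2 fold changes of -2.33, -3.56, -2.57 and -1.04. Tgfb2 encodes a ligand of the TGF-beta family, a signal known to act on several CDK inhibitor genes.

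**Figure D2:**
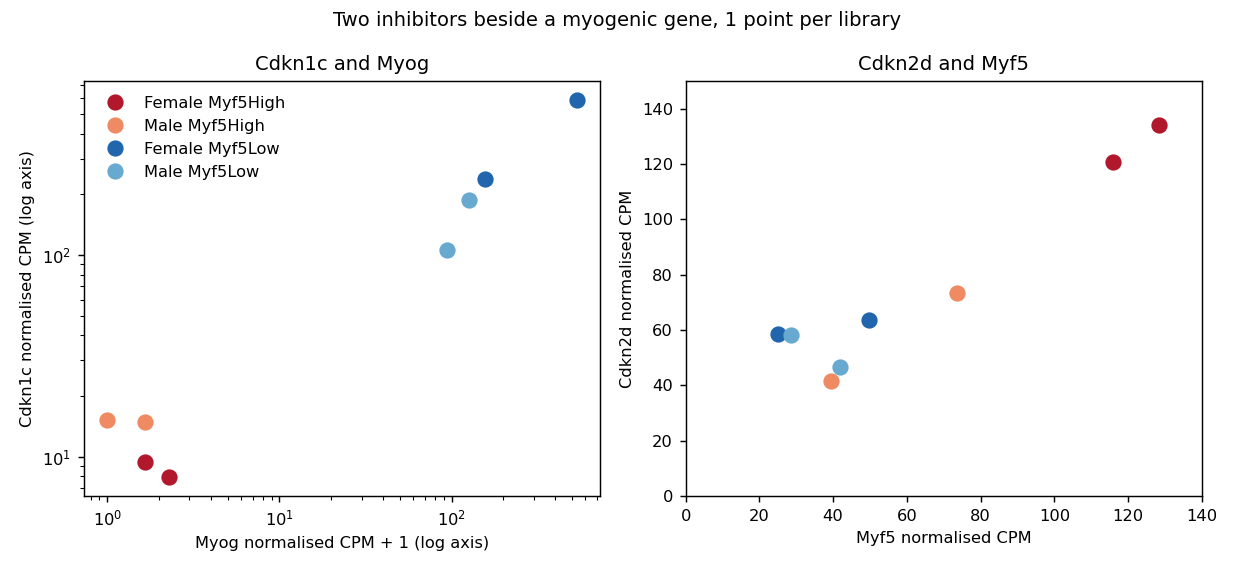
Left, Cdkn1c against Myog (normalised CPM, with 1 added to Myog; log axes); right, Cdkn2d against Myf5 (normalised CPM, linear axes), with 1 point per library coloured by sex and fraction. Myf5High libraries lie at Cdkn1c levels up to 15.1 CPM with Myog up to 1.27 CPM, and the Myf5Low libraries lie far above on both axes.

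Some markers of commitment to muscle differed between the fractions. Over both sexes, 9.36% of all genes tested had an unadjusted p under 0.05 between the fractions, edgeR called 1.2% and DESeq2 called 234 of 11730 genes, beside which the counts of the lists stand here. Of 25 listed commitment genes 20 were tested, edgeR called 4 lower and 1 higher in Myf5High, DESeq2 called 6, and 10 had an unadjusted p under 0.05, with a median log2 fold change of -0.49 beside -0.02 for all genes tested. The list's median was -0.83 in females and 0.01 in males, where 10 of the 20 signs were positive. Myog (log2 -8.42, SE 0.50, adjusted p = 2.24e-08), Mymk (adjusted p = 0.000108), Dok7, a protein of the neuromuscular synapse (log2 -6.44, SE 0.97, adjusted p = 0.00144), and Chrna1, the acetylcholine receptor alpha subunit (log2 -1.17, SE 0.24, adjusted p = 0.0151), were lower. The fitted sizes for Mymk, Myog and Dok7 rest on Myf5High libraries at or near 0 counts and are not exact; Dok7 averaged 0.323 CPM in Myf5High and 13.1 in Myf5Low, and its log2 value ran from -8.62 without female Myf5High pool 1 to -5.90 without female Myf5High pool 2. Des, the intermediate filament desmin, was higher (log2 0.80, adjusted p = 0.0469). The Chrna1 call was lost without female Myf5High pool 1 or 2, female Myf5Low pool 2 or male Myf5Low pool 1 (adjusted p 0.0649 to 0.0962), and the Des call without 5 of the 8 libraries in turn or with RLE scaling (adjusted p 0.0505 to 0.26). The summed level of the list ran from 1910 to 3204 CPM in Myf5High and from 1623 to 2617 in Myf5Low, so the fractions overlapped. Des, at 1622 ± 458 and 925 ± 313 CPM, and Cdh15, at 374.5 ± 68.1 and 301 ± 19.96 CPM (SD, n = 4), make up most of that sum, and their means were higher in Myf5High. The part of this marker difference in the Cdkn1c result was not tested.

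Markers of other cells also differed in places. The 12 immune markers summed to 18.2 to 48.2 CPM in Myf5High and 53.8 to 94.1 in Myf5Low, and of 8 tested 1 was called lower in Myf5High: C1qa (log2 -2.13, adjusted p = 0.00771). Of those 8, 7 had a negative sign, with a median of -1.95, and DESeq2 called 2. Their defining gene Ptprc had 19 counts in female Myf5High pool 1 and 0 in the other 3 Myf5High libraries, and 2 to 15 counts in the Myf5Low libraries, and Csf1r, Adgre1, Itgam and Cd3e did not pass the filter. Of 10 mural markers 1 was called lower by edgeR and 2 were called by DESeq2, with Acta2 the edgeR call (log2 -1.73, adjusted p = 0.000389). Of the 10, 7 had a negative sign and 5 an unadjusted p under 0.05, with a median of -0.41, and the sums overlapped, at 425.1 to 558.8 CPM in Myf5High and 422.9 to 811.2 in Myf5Low. Of 9 fibro-adipogenic markers tested 1 was called higher, Dpt (log2 1.05, adjusted p = 0.00327), with sums of 738.6 to 1658 CPM against 529.6 to 769.5. Dpt (444.5 against 209.8 CPM) and Col3a1 (331.1 against 214.7) make up most of these sums, and the 9 signs were 5 positive and 4 negative. No marker of 10 endothelial and 9 glial ones tested was called by edgeR, with 5 and 2 at an unadjusted p under 0.05 and 2 and 0 called by DESeq2. Of these markers, 9 of 10 endothelial and 7 of 9 glial ones had a negative sign, with medians of -0.55 and -0.48, the same direction as Cdkn1c. Their part in the Cdkn1c result was not tested.

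The neighbours of Cdkn1c in its imprinted domain that could be tested gave no call between the fractions. Whether these neighbours are imprinted in muscle stem cells was not tested. Of 10 listed genes of the domain, 4 passed the filter and 0 were called by edgeR, 0 by DESeq2 and 0 at an unadjusted p under 0.05. Over both sexes, their log2 fold changes were 0.17 for Nap1l4, 0.07 for Tssc4, 0.37 for Cd81 and 0.60 for Osbpl5, opposite in sign to that of Cdkn1c. Tssc4 had the lower value in Myf5High in 3 of 4 pools and a log2 fold change of -0.13 in males. The imprinted genes Kcnq1, Slc22a18 and Phlda2 had at most 5 counts in any library, and Ascl2 and Trpm5 had 0 counts in all 8. Kcnq1ot1 was not analysed here.

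Cdkn1a encodes p21, the inhibitor best known as a target of p53. The gene, ENSMUSG00000023067, lies at chr17:29090976-29100727 on the plus strand. The bases before the first of its starts in RefSeq (GRCm38.p6, chr17:29090729-29090978, plus strand) are shown because they hold a match to the p53 response element. The match, in capitals, has 1 mismatch to the consensus.
Cdkn1a, upstream of the start: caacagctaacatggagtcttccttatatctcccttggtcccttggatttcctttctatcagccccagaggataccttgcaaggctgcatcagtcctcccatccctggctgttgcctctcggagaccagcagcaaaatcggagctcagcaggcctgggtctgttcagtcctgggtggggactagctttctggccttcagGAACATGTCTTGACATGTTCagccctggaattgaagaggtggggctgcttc
The element was searched by its published 20-base consensus on both strands with at most 1 mismatch, and it was found in 25 of 32851 windows of 250 bases upstream of RefSeq starts (0.0761%). RefSeq gave 9 windows for 6 members, and no other of these held a match. The E-box CANNTG, the letters that myogenic factors bind, stood in 66.2% of all windows and, among the members, in those of Cdkn2b and of the second Cdkn1a start. A match is a description of letters and not a bound site.

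No difference of Cdkn1a between the fractions passed the test. Myf5High libraries were at 55.3 and 64.4 CPM in females and 76.1 and 56.2 in males, and Myf5Low libraries at 60.2 and 126.1 in females and 40.5 and 46.6 in males. The fractions overlapped, and female Myf5Low pool 2 stood above all other libraries. Over both sexes the log2 fold change was -0.02 (SE 0.24, 95% interval -0.53 to 0.49, adjusted p = 0.995 by edgeR). In both female pools Cdkn1a was at a lower value in Myf5High (log2 fold change -0.64, adjusted p = 0.749), and in both male pools at a higher one (0.61, adjusted p = 0.826). The test of that difference between the sexes gave -1.24 (SE 0.49, unadjusted p = 0.0198, adjusted p = 1), so it did not pass. Without female Myf5Low pool 2 the female log2 fold change was -0.0163 and the difference between the sexes -0.63 (adjusted p = 1 for both); without female Myf5Low pool 1 they were -1.08 and -1.69 (0.378 and 0.877). Low in both female pools and high in both male pools held for 642 genes, 5.47% of those tested, and the reverse for 5.52%. The antisense transcript AC167363.2 overlaps 273 exon bases of Cdkn1a, and how reads there were counted is not given in the sources used here.

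Other targets of p53 gave no call between the fractions. Of 20 listed targets 19 were tested, 0 were called by edgeR or DESeq2, and 3 of 19 had an unadjusted p under 0.05, beside 9.36% of all genes tested, with a median log2 fold change of -0.01. Mdm2, which brings p53 to degradation, was at 100.4 ± 26.0 CPM in Myf5High and 88.5 ± 13.1 in Myf5Low (SD, n = 4; log2 0.15, adjusted p = 0.92). Gadd45a, a stress-induced gene of growth arrest, was at 105.4 ± 34.3 and 94.6 ± 39.2 CPM (log2 0.19, adjusted p = 0.93). Sesn1, a sestrin, had the lower value in Myf5High in 4 of 4 pools without passing (log2 -0.75, SE 0.25, adjusted p = 0.221). Between the sexes over both fractions, edgeR called 2 of the 19 targets higher in females, where it called 1.65% of all genes tested. These were Btg2 (log2 0.91, adjusted p = 0.0105) and Bbc3 (log2 1.99, adjusted p = 0.0174), while Cdkn1a was not called (0.48, adjusted p = 0.399). The list as a whole leaned the other way, with 12 of the 19 signs negative and a median of -0.22. The Btg2 and Bbc3 calls treat the libraries of a pool as separate samples. They were not repeated with pool sums or with single libraries left out. The genes most like Cdkn1a in level over the 8 libraries were Kdelr2, Snrpg and Ahdc1, with r of 0.95, 0.95 and 0.92.

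Cdkn1b encodes p27, which is known to build up in resting cells and to be degraded as they enter the cycle. The gene, ENSMUSG00000003031, lies at chr6:134920401-134925513 on the plus strand. In Myf5High it was at 50.5 and 43.8 CPM in females and 48.3 and 61.1 in males, and in Myf5Low at 59.6 and 68.2 in females and 29.8 and 53.8 in males. The fractions overlapped, and male Myf5Low pool 1 was the lowest library. The log2 fold change over both sexes was -0.03 (SE 0.24, 95% interval -0.53 to 0.47, adjusted p = 0.993 by edgeR). As with Cdkn1a, the Myf5High value was the lower one in both female pools and the higher one in both male pools. The sex-specific log2 fold changes were -0.44 (adjusted p = 0.888) and 0.39 (adjusted p = 0.959), and their difference, -0.83 (SE 0.48), did not pass (adjusted p = 1). Without male Myf5Low pool 1 the male value was 0.0346 and the difference -0.48, and without male Myf5Low pool 2 they were 0.87 and -1.31. Mcur1, Gtpbp8 and Med20 were the genes most like it over the libraries, with r of 0.98, 0.96 and 0.93.

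Skp2, the ubiquitin ligase subunit that recognises p27 and other Cip/Kip proteins for degradation, was higher in Myf5Low. Its levels were 10.4 and 15.3 CPM in female and 18.0 and 17.4 in male Myf5High libraries, against 35.2 and 38.3 in female and 35.6 and 37.99 in male Myf5Low libraries. No library of one fraction reached the other, which held in this direction for 2.22% of all genes tested. The log2 fold change was -1.28 (SE 0.27, adjusted p = 0.0188 by edgeR), in a comparison that called 1.2% of all genes tested. The call was lost without female Myf5High pool 1 (adjusted p = 0.147), female Myf5Low pool 2 (0.0805), male Myf5Low pool 1 (0.0525) or male Myf5Low pool 2 (0.0744), with log2 values of -1.17 to -1.30 in these fits. It was the one gene called of 13 listed for the turnover of CDK inhibitors, all tested, and 11 of the 13 had a negative sign, with a median of -0.18. Its cofactor Cks1b was not called (log2 -0.35, adjusted p = 0.902).

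Among the Ink4 genes, Cdkn2d had the widest range between groups. Cdkn2d, ENSMUSG00000096472 at chr9:21288410-21291407 on the minus strand, encodes p19Ink4d. Its levels were 134.2 and 120.9 CPM in female Myf5High, 73.2 and 41.8 in male Myf5High, 58.5 and 63.7 in female Myf5Low and 46.6 and 58.3 in male Myf5Low. The female Myf5High libraries stood above all 6 others, and male Myf5High pool 2 was the lowest. Over both sexes the log2 fold change was 0.60 (SE 0.22, 95% interval 0.14 to 1.06, unadjusted p = 0.0136), which did not pass the adjustment (adjusted p = 0.312 by edgeR). The ratio of Myf5High to Myf5Low was 2.29 and 1.90 in the female pools and 1.57 and 0.716 in the male pools. In females the log2 fold change was 1.06 (SE 0.31, 95% interval 0.41 to 1.71, adjusted p = 0.221) and in males 0.14 (adjusted p = 1), and the test of their difference gave 0.92 (unadjusted p = 0.0494, adjusted p = 1). On leaving out single libraries, the value over both sexes ran from 0.37 to 0.77 (adjusted p 0.062 to 0.769 by edgeR). The difference between the sexes ran from 0.58 to 1.39. The genes most like Cdkn2d were Tuba1a, Myl6 and Dock11, with r of 0.99, 0.98 and 0.98.

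Cdkn2c, the gene of p18Ink4c, was the most even member. It is ENSMUSG00000028551 at chr4:109660876-109667189 on the minus strand. Its levels were 14.6 and 16.6 CPM in female and 12.7 and 16.4 in male Myf5High libraries, and 16.8 and 17.4 in female and 18.4 and 14.6 in male Myf5Low libraries. Fractions and sexes overlapped, and the log2 fold change between fractions was -0.16 (SE 0.32, 95% interval -0.83 to 0.52, adjusted p = 0.957 by edgeR). Dhx35, Rpsa and Mum1l1 were the genes most like it, with r of 0.96, 0.96 and 0.95.

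Cdkn2a and Cdkn2b lie beside each other on chromosome 4, at chr4:89274471-89294653 (ENSMUSG00000044303) and chr4:89306299-89311039 (ENSMUSG00000073802), both on the minus strand. Cdkn2a gives rise to p16Ink4a and, from another first exon, to p19Arf, a protein that stabilises p53 and is no CDK inhibitor, and gene counts do not separate the transcripts. Both genes are known to be kept silent by Polycomb proteins in young cells. Cdkn2a was at 4.85 and 4.58 CPM in female and 8.16 and 3.29 in male Myf5High libraries, and at 4.67 and 4.70 in female and 10.1 and 9.80 in male Myf5Low libraries. The 2 male Myf5Low libraries were the highest, and the fractions overlapped (log2 -0.38, SE 0.55, 95% interval -1.53 to 0.76, adjusted p = 0.928 by edgeR). With single libraries left out, this log2 value ran from -0.79 to -0.14. Igsf10, Lfng and Vstm4 were the genes most like it, with r of 0.93, 0.92 and 0.92. Cdkn2b, the gene of p15Ink4b, had 1 and 6 counts in female and 9 and 0 in male Myf5High libraries, and 0 and 3 in female and 8 and 0 in male Myf5Low libraries. With 3 of 8 libraries at 0 counts, a difference in Cdkn2b was not detectable at this depth. Of the Polycomb genes on the list of transcriptional regulators, Bmi1 had a log2 fold change of -0.003 (adjusted p = 1) and Ezh2 one of -0.48 (adjusted p = 0.42).

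**Figure D3:**
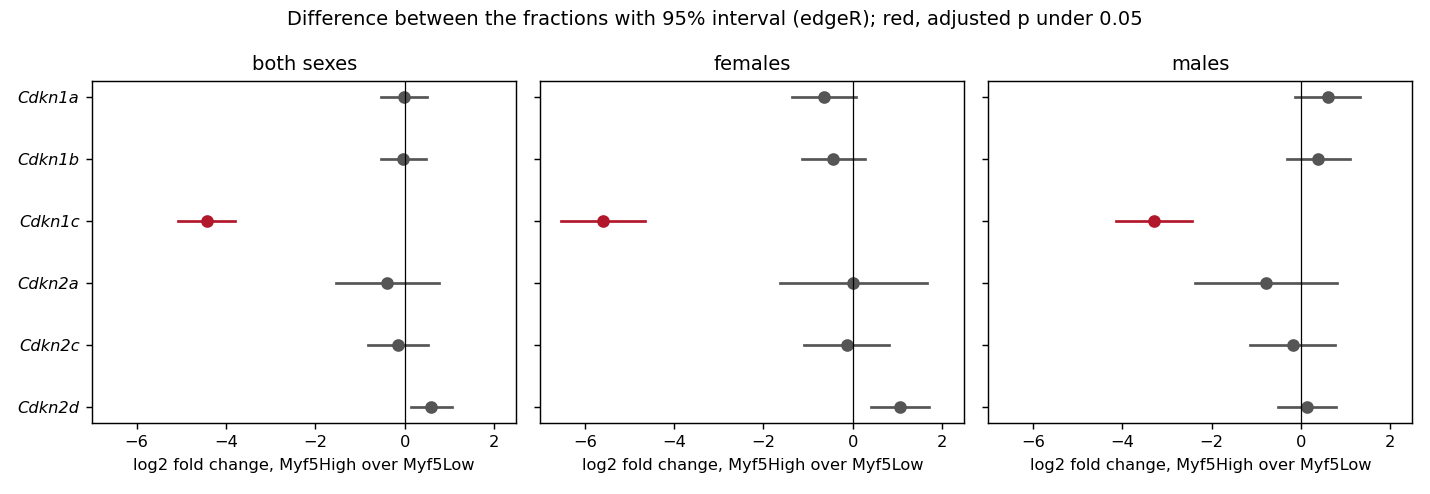
Log2 fold change of Myf5High over Myf5Low for the 6 tested CDK inhibitor genes, over both sexes, in females and in males, with 95% intervals from edgeR; red marks an adjusted p under 0.05. Cdkn1c is the only member in red in each panel, at -4.43, -5.58 and -3.29; Cdkn1a and Cdkn1b lie to the left of 0 in females and to the right in males.

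To compare levels between genes, CPM were divided by the exon length of each gene in kilobases. In Myf5High, Cdkn2d led with a median of 61.7 CPM per kb (range 26.5 to 85.3), followed by Cdkn1a at 17.0 and Cdkn1b at 10.8, each without overlap with the next. Cdkn1c at 5.93, Cdkn2c at 5.77 and Cdkn2a at 4.03 overlapped in their ranges, and Cdkn2b was last at 0.666. In Myf5Low, Cdkn1c led with a median of 104.5 CPM per kb (range 51.7 to 288.5), without overlap with Cdkn2d at 37.1. Cdkn2d (29.6 to 40.5), Cdkn1a at 15.02 (11.4 to 35.5) and Cdkn1b at 12.5 (6.54 to 14.98) overlapped in their ranges over libraries, yet within each of the 4 Myf5Low libraries Cdkn2d was above Cdkn1a and Cdkn1a above Cdkn1b. Cdkn1b exceeded Cdkn2c at 6.36 in 3 of 4 libraries and Cdkn2c exceeded Cdkn2a at 6.19 in 2 of 4, and Cdkn2b at 0.254 lay below all.

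The make-up of the inhibitor transcripts differed between the fractions in the share of Cdkn1c. Of the summed CPM per kb of the 7 genes, Cdkn1c made up 3.24 to 10.1% in Myf5High libraries (median 5.56%) and 40.5 to 73.9% in Myf5Low (median 59.5%). Cdkn2d made up 36.9 to 67.5% in Myf5High (median 55.6%) and 10.4 to 29.1% in Myf5Low (median 19.0%), of a sum that includes Cdkn1c. Of the sum without Cdkn1c it made up 41.0 to 70.1% in Myf5High and 39.7 to 48.9% in Myf5Low, which overlap. The sum itself was 72.0 to 126.3 CPM per kb in Myf5High and 127.4 to 390.5 in Myf5Low, and without Cdkn1c it was 64.7 to 121.7 and 64.3 to 102, so that the fractions overlapped. The Cip/Kip genes summed to 31.2 to 39.5 CPM per kb in Myf5High and 76.6 to 339 in Myf5Low, and the Ink4 genes to 35.5 to 95.1 and 46.3 to 51.5.

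**Figure D4:**
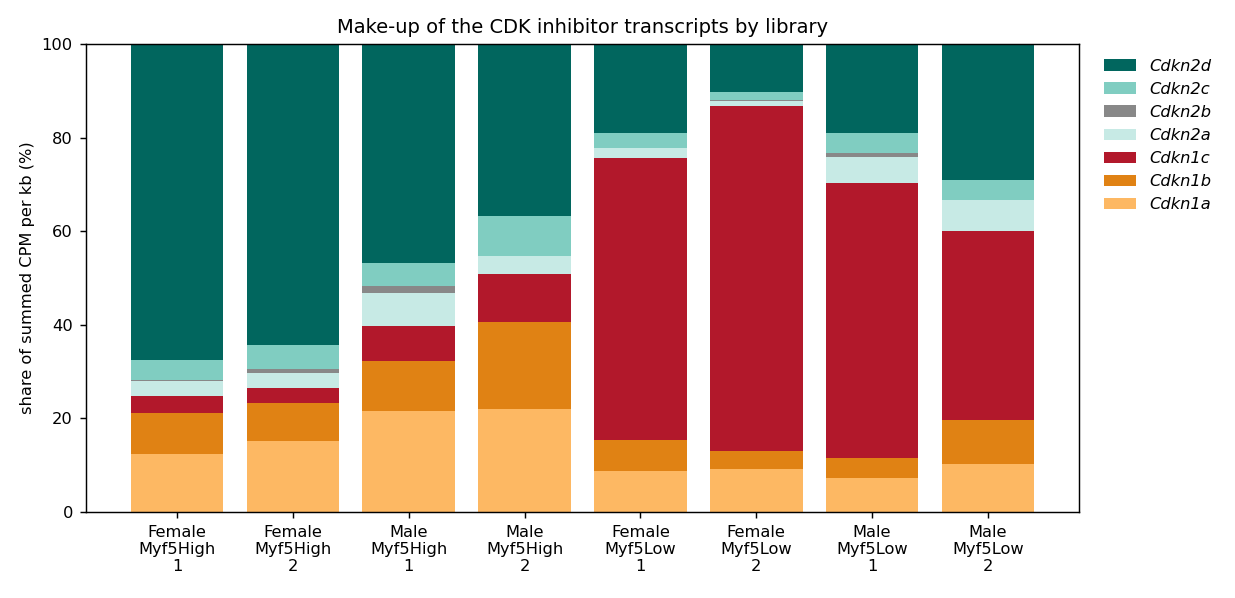
Share of each CDK inhibitor gene in the summed CPM per kb of all 7 (percent), 1 stacked bar per library. Cdkn1c takes at most 10.1% in a Myf5High library and at least 40.5% in a Myf5Low library. The bars share 1 total, so the other genes' shares shrink where Cdkn1c is high; of the sum without Cdkn1c, the Cdkn2d shares overlap (41.0 to 70.1% and 39.7 to 48.9%).

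The kinases and cyclins that the inhibitors act on were not called between the fractions. Of 11 listed, 10 were tested, 0 were called by edgeR or DESeq2 and 1 had an unadjusted p under 0.05, with a median log2 fold change of -0.35. By sex, the list's median was -0.02 in females and -0.36 in males. Ccnd1, the D-type cyclin of the growth phase, was at 415.5 ± 115.8 CPM in Myf5High and 393.2 ± 154.5 in Myf5Low (SD, n = 4; log2 0.13, adjusted p = 0.932). For Ccnd1 the log2 fold change was 0.82 in females (adjusted p = 0.363) and -0.56 in males (adjusted p = 0.761). Their difference, 1.38 (SE 0.39), did not pass (adjusted p = 0.917 by edgeR). Ccnd3 was at 599.3 ± 53.3 and 493.8 ± 26.8 CPM (log2 0.28, adjusted p = 0.692) and Ccnd2 at 46.3 ± 21.8 and 83.1 ± 43.1 (log2 -0.76, adjusted p = 0.42). Cdk4 was at 69.3 ± 5.23 and 76.2 ± 17.8 CPM (log2 -0.14, adjusted p = 0.937), and Cdk6 at 25.6 ± 14.2 and 17.6 ± 7.41 (log2 0.48, adjusted p = 0.756). The pocket proteins, which hold E2F factors inactive until CDKs phosphorylate them, and the E2F genes gave 0 calls of 13 with edgeR and with DESeq2 and 2 at an unadjusted p under 0.05, with 11 negative signs and a median of -0.29 over both sexes. In males alone 8 of the 13 signs were positive, with a median of 0.12, and in females 2 were, with a median of -0.36. E2f1 was the lower in Myf5High in 4 of 4 pools (log2 -1.25, SE 0.59, adjusted p = 0.522), and Rb1 had a log2 fold change of -0.55 (adjusted p = 0.734).

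Genes of proliferation gave no call. In the fit over both sexes, all 19 tested of 20 listed had lower fitted values in Myf5High, with a median of -0.56, but 6 of the 19 had a positive sign in females and 1 in males, and 6 were higher in Myf5High in 2 of 4 pools. Over both sexes, edgeR and DESeq2 called 0, and 2 had an unadjusted p under 0.05. Mki67, the gene of the Ki-67 antigen of cycling cells, was at 13.3 and 35.9 CPM in female and 28.1 and 18.4 in male Myf5High, and at 51.4 and 48.9 in female and 174.7 and 18.9 in male Myf5Low (log2 -1.53, adjusted p = 0.153). Male Myf5Low pool 1 was far above the others in Mki67. The 23 regulators of inhibitor transcription, all tested, gave 0 calls with edgeR and DESeq2 and 5 of 23 at an unadjusted p under 0.05, beside 9.36% of all genes tested, with a median of 0.01. Trp53, the gene of p53, was at 27.9 ± 5.58 and 27.7 ± 6.93 CPM (log2 0.01, adjusted p = 0.997), Foxo3 had a log2 fold change of 0.10 (adjusted p = 0.958), Hey1 of 0.49 (adjusted p = 0.442) and Tgfbr1 of 0.76 (adjusted p = 0.294). The smallest adjusted p of these regulators were those of Smad2 (log2 0.90, adjusted p = 0.139) and Foxo4 (log2 -0.58, adjusted p = 0.269) by edgeR. In Myf5High, Smad2 had the higher value and Foxo4 the lower one in 4 of 4 pools.

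**Figure D5:**
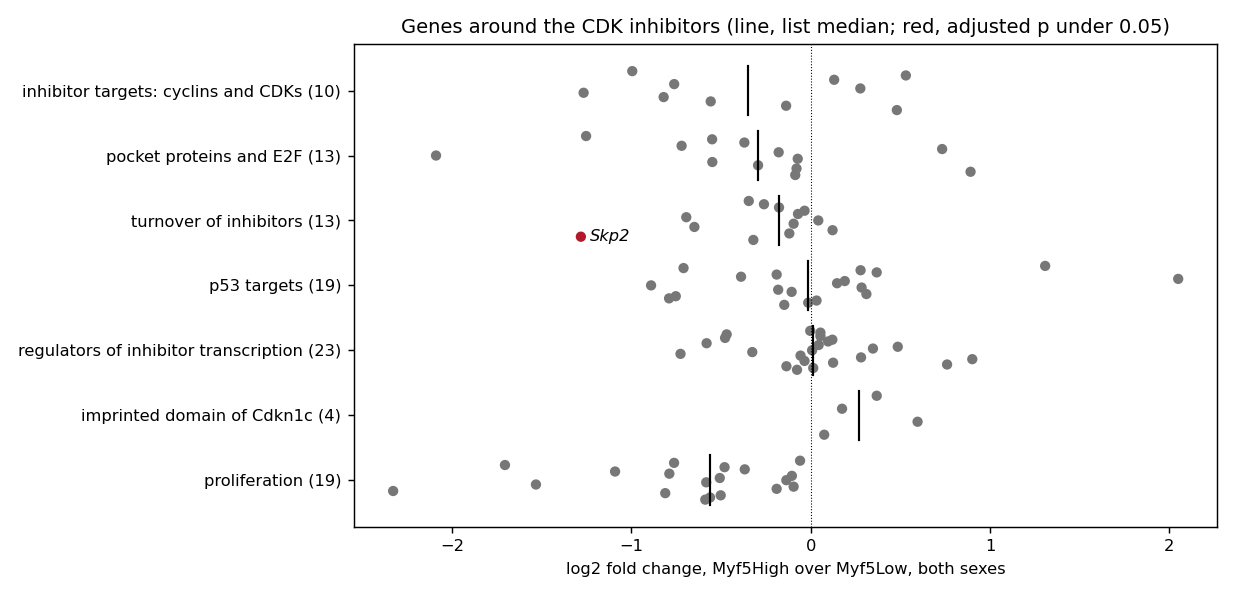
Log2 fold change of Myf5High over Myf5Low over both sexes for the tested genes of 7 lists around the CDK inhibitors, 1 point per gene, with a line at each list's median and red for an adjusted p under 0.05 by edgeR. List medians run from -0.56 for proliferation to 0.27 for the imprinted domain, and Skp2 is the 1 gene in red.

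Between the sexes no member was called over both fractions, where edgeR called 1.65% of genes tested. DESeq2 also called 0 members, and 1 of 6 had an unadjusted p under 0.05, as did 13.9% of all genes tested. That member was Cdkn2d, at 94.4 ± 38.8 CPM in females and 54.97 ± 14.0 in males (SD, n = 4; log2 0.68, SE 0.22, unadjusted p = 0.00598, adjusted p = 0.147). Without male Myf5High pool 1 it passed (log2 0.92, adjusted p = 0.0199), and without any other single library it did not (log2 0.51 to 0.77, adjusted p 0.17 to 0.422). Cdkn1c was at 211 ± 274 CPM in females and 80.6 ± 82.8 in males (log2 0.35, adjusted p = 0.622), and without female Myf5Low pool 2 its sign turned (log2 -0.04, adjusted p = 0.991). If the fractions of a pool share their mice, as the pool labels read, the libraries of a sex are not 4 independent samples. With the counts of each pool summed, leaving 2 pools a sex, Cdkn1c was called higher in females (log2 1.37, adjusted p = 0.0435). Most Cdkn1c counts in those sums came from Myf5Low, with 441 to 2501 per library beside 29 to 63 in Myf5High. Within Myf5High its value was the lower one in females, at 8.64 against 14.96 CPM (log2 -0.80, adjusted p = 0.517 by edgeR).

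Within Myf5High, edgeR called 0.512% of genes and no member between the sexes, while 1 of 6 members had an unadjusted p under 0.05, as did 11.3% of all genes tested, and DESeq2 called 1 member, among 197 of 9683 genes. This was Cdkn2d in both, at 127.6 ± 9.39 CPM in females and 57.5 ± 22.3 in males (SD, n = 2; log2 1.14, SE 0.31, adjusted p = 0.117 by edgeR and 0.0386 by DESeq2). Within Myf5Low, edgeR called 0.205% of genes and no member, 2 of 6 members had an unadjusted p under 0.05, beside 7.18% of all genes tested, and DESeq2 called 1 member, among 64 of 11047 genes. Cdkn1c, the one that DESeq2 called, was 414 ± 247 CPM in females and 146 ± 57.8 in males (log2 1.501, SE 0.36, adjusted p = 0.151 by edgeR and 0.0235 by DESeq2). Cdkn1a had a log2 difference of 1.10 there (unadjusted p = 0.0052, adjusted p = 0.37), which was 0.47 (adjusted p = 1) without female Myf5Low pool 2 and 1.53 (0.112) without female Myf5Low pool 1. The edgeR result for Cdkn1c in Myf5Low passed without female Myf5Low pool 1 (adjusted p = 0.0161), male Myf5High pool 1 (0.0484) or male Myf5High pool 2 (0.0426). Without female Myf5Low pool 2 its log2 difference fell to 0.72 (adjusted p = 1), and without male Myf5Low pool 2 to 1.14 (0.55). That for Cdkn2d in Myf5High passed without male Myf5High pool 1 (log2 1.61, adjusted p = 0.0231), was 0.80 without male Myf5High pool 2 (0.36), and had its highest adjusted p, 0.568, without female Myf5High pool 1. With 2 pools a sex, these comparisons rest on the spread shared by all groups in the fit.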

How the data were processed

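The authors deposited raw whole-number counts per Ensembl gene, with no normalisation. Counting was done with HTSeq on GRCm38, per the submitters' processing notes; aligner, annotation release and strand setting are not given in the sources used here. Of 27554 genes, 27441 matched GENCODE M21, which gave symbols, coordinates and exon lengths. Rows of unassigned reads stayed out of library sizes; unassigned reads without a feature were 42.0 to 45.3% of reads in the table.

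The tests ran in edgeR 4.0.16 under R 4.3.3: filterByExpr (minimum count 10, total 15) left 11730 genes, libraries were scaled by TMM, and glmQLFit took all 8 libraries together, with 1 mean for each group. Contrasts used the two-sided glmQLFTest with Benjamini-Hochberg adjustment over all genes tested, and an adjusted p under 0.05 counts as called. Standard errors came from the fold change and its F statistic. Correlations used log2 CPM with a prior count of 2, over genes that averaged 5 CPM or more. The script was tested on simulated data with 200 genes changed between the fractions over both sexes. At a log2 change of 2, edgeR called 155 of the 200, with 10 false calls. At a log2 change of 0.6 it called 0 of them and DESeq2 called 7, so real differences of that size can go uncalled here. Libraries were paired by pool number, which the labels give to the High and Low library of a pool without saying outright that they share mice; deviations from the group means correlated at 0.03 in female and -3e-04 in male pools. Replicates are separate pools per the labels. Floors cover counting error only.

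Alternatives were DESeq2 1.42.0, RLE scaling, no filter, only the libraries compared, an additive model, the pool as a block, pool sums, counts without Gm42418 and leaving out each library. The members, the gene lists and the tests were chosen with earlier results of these data known. Genes named are the members, genes of the lists (up to 4 called genes of largest size, and others as examples), and the 6 (Cdkn1c) or 3 genes most like each tested member. Examples that were not called were picked after their values were seen.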

Additional observations from a re-analysis of the deposited data

Results flagged for a closer look

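Of 24 sets of 4 libraries examined for a single library far from the rest, 1 stood out: Cdkn1a in the female libraries, where Myf5Low pool 2, at 126.1 CPM, lay apart from the other 3, at 55.3 to 64.4 CPM. Its gap to the nearest was 0.8712 of the whole range. Chance sets apart about 1 in 20 such sets. Without that library the Cdkn1a log2 fold change in females went from -0.64 to -0.0163.

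Cdkn1a and Cdkn1b had lower values in Myf5High in both female pools and higher ones in both male pools. The differences between the sexes were -1.24 and -0.83 on the log2 scale, and the interaction test passed for neither gene (adjusted p = 1 for both by edgeR). Without female Myf5Low pool 2 that of Cdkn1a was -0.63, and without male Myf5Low pool 1 that of Cdkn1b was -0.48. Their opposite directions come from 2 pools a sex.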

How the results depend on the processing

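Over 833 alternative values, 27 changed sign, 27 lost and 11 gained a call, and the 27 lost calls were all of genes that are no members. Cdkn1c stayed lower in Myf5High and called in all 14 alternatives over both sexes (log2 -4.69 to -4.04), in females (-6.10 to -4.80) and in males (-3.64 to -2.80), and it was the 1 member called each time. With the pool as a replicate block, its log2 fold changes were -4.35 (adjusted p = 3.95e-08), -5.46 (7.18e-07) and -3.24 (0.000496) and its interaction -2.22 (0.849); the block turned Cdkn1a over both sexes to 0.0199 and changed no member's call.

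The interaction had 0 members called, and 1 without a filter on low counts (Cdkn1c, -2.30, adjusted p = 0.0014). Female against male had 0 called, and 1 with pool sums, with a range of 0 to 1 when single libraries were left out. Within Myf5High and within Myf5Low, 1 member was called with DESeq2 and 1 without a filter, with 0 to 1 on leaving out single libraries; without a filter these were Cdkn2d (1.13, adjusted p = 0.034) and Cdkn1c (1.49, 0.000175). The adjusted p of Cdkn1c within Myf5Low ran from 0.000175 to 1. The cause was not tested.

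Signs also turned for values that were not called. Cdkn2a in females gave -5e-04 with DESeq2 and with RLE scaling and -0.003 without a filter. On leaving out single libraries, ranges over both sexes were -0.24 to 0.30 for Cdkn1a and -0.21 to 0.22 for Cdkn1b; in females -0.0476 to 0.0498 for Cdkn2a; in males -0.38 to 0.0084 for Cdkn2c and -0.33 to 0.48 for Cdkn2d. Female against male, they were -0.0434 to 0.59 for Cdkn1c and -0.0137 to 0.17 for Cdkn2c. Within Myf5High they were -0.34 to 0.0914 for Cdkn1a, -0.78 to 0.52 for Cdkn2a and -0.0784 to 0.29 for Cdkn2c, and within Myf5Low -0.11 to 0.23 for Cdkn2c, whose interaction ran from -0.15 to 0.24. Depth limits Cdkn2b: without a filter its log2 fold change was 0.77 (SE 1.93, adjusted p = 1).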

Other observations

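Of 12 listed genes of muscle stem cell identity, all tested, edgeR called 3 higher in Myf5High, while 5 of the 12 had a negative sign over both sexes, 6 in males and 2 in females, where the median was 0.41. One of the 3 is Myf5, on whose reporter the cells were sorted. The others are Calcr, the calcitonin receptor known to hold these cells at rest (log2 0.89, adjusted p = 0.0389), and Chrdl2, a secreted chordin-like protein (log2 1.33, adjusted p = 0.00554). The Calcr call was lost in 8 of 14 alternatives, with adjusted p of 0.00492 to 0.191 over all, and the Chrdl2 call in none of 14. Immediate early genes, whose RNA is known to rise during cell isolation, had 18 of 20 positive signs with a median log2 fold change of 0.36, and edgeR called 0, DESeq2 1, and 6 of 20 had an unadjusted p under 0.05, beside 9.36% of all genes tested. Cdk2, the kinase that Cip/Kip proteins act on, was called higher in females (log2 1.29, adjusted p = 0.0476) and not called between the fractions (log2 -0.56, adjusted p = 0.651). The Cdk2 call between the sexes treats the libraries of a pool as separate samples. It was not repeated with pool sums or with single libraries left out.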
